A study of Mus musculus with 30 samples.

Results

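The RNAs described here are those of 7 mouse noncoding RNA genes, grouped as nuclear and structured noncoding RNAs: Malat1, Neat1, Meg3, Snhg11, Snhg1, Gas5 and Rpph1. Their transcripts were picked by gene symbol in 4 deposited count tables, to read how much nuclear RNA is present in an extract of axon cytoplasm and in RNA recovered with 2 RNA-binding proteins. Where in the cell each RNA lay was not measured, so the level of a member is not by itself a measure of nuclear RNA. Of the 7 genes, 6 were listed, with 18 transcripts among 20423 listed transcripts of 14455 genes. Snhg1 was not listed in the tables used, by symbol or by any of its 18 annotated transcript identifiers, and is not analysed here. The table of inputs held 11 of the 18 member transcripts, the table of nucleolin in injured nerve 16, the table of nucleolin in naive nerve 17 and the table of PTBP1 all 18, and 11 were in all 4.

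The material was sciatic nerve axoplasm of mice, prepared by grinding the nerve in buffer and discarding the pellet after centrifugation, with 10 nerves pooled per sample. Nerves came from injured mice, 7 days after a sciatic nerve crush, or from naive mice. The sources used here give no strain, genotype, sex or age. From each condition there were immunoprecipitates (IP) with an antibody to nucleolin, nucleolin blocked IPs in which a blocking peptide occupied the antibody beforehand, PTBP1 IPs, PTBP1 blocked IPs made in the same way, and inputs, the extract before IP. These are 10 groups of 3 libraries, 30 in all, described in the labels as independent biological repeats. Axons hold no nuclei, but the ground nerve also holds Schwann cells, fibroblasts, macrophages and vessel cells, so an extract of this kind can carry their cytoplasm and nuclear contents.

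Malat1 is a long noncoding RNA of nuclear speckles, and Neat1 is the scaffold of paraspeckles, bodies in the nucleus that form around it. Meg3 is a maternally expressed imprinted RNA found largely in the nucleus, and Snhg11 and Gas5 are host genes whose introns carry small nucleolar RNAs (snoRNAs). Rpph1 is the RNA subunit of ribonuclease P, which trims the 5′ ends of transfer RNA precursors. Nucleolin is an RNA-binding protein abundant in the nucleolus, and PTBP1 binds pyrimidine-rich tracts, including the motif TCTT (UCUU in RNA), and represses splicing.

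Because PTBP1 binds runs of C and T, the 60 bases richest in C and T of each gene's most abundant listed transcript are shown, in GENCODE transcript sequence on GRCm38, 5′ to 3′ on the transcript strand and with every TCTT in capitals.
Snhg11, chr2:158383199-158383258 (+): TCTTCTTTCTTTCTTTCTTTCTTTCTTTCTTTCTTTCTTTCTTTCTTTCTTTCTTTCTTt
Meg3, chr12:109546463-109546522 (+): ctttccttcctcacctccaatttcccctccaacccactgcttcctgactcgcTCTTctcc
Neat1, chr19:5826972-5827031 (-): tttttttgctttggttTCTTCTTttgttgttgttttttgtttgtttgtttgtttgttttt
Malat1, chr19:5799855-5799914 (-): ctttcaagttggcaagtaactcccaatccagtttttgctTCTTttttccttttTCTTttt
Gas5, chr1:161037103-161037162 (+): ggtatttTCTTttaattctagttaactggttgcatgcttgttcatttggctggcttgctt
Rpph1, chr14:50807663-50807722 (-): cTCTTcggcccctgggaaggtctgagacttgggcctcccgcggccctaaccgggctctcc
The Snhg11 window was made up wholly of C and T, 60 of 60 bases, and held 15 copies of TCTT. The Meg3, Neat1 and Malat1 windows held 50, 49 and 45 C or T bases, and the Gas5 and Rpph1 windows 39 and 36. Over all 19974 listed transcripts with a sequence the median was 44, and 1.6% reached 60. A longer transcript offers more windows, and these maxima were not matched for length. The median length of the listed transcripts was 2320 bases, against 20771 for Neat1, 14548 for Meg3 and 319 for Rpph1. Over its whole length of 5864 bases, Snhg11 had 15.9 copies of TCTT per kilobase. That density was reached by 0.335% of the listed transcripts with a sequence, against a median of 5.05. Neat1, Meg3 and Malat1 had 6.60, 6.53 and 7.45 copies per kilobase, and Gas5 and Rpph1 5.48 and 3.13. TCTT occurs in 96.8% of listed transcripts on the transcript strand, the only strand searched. Overlapping copies were counted. CTCTCT, whose copies can share bases with a TCTT at their ends, had 0.77 copies per kilobase in Neat1, 0.96 in Meg3 and 0.51 in Snhg11, and occurs in 56.7% of listed transcripts. TCCCGA, the core of the nucleolin recognition element, had 3 copies in Neat1, 1 each in Malat1, Meg3 and Snhg11, and none in the Gas5 and Rpph1 transcripts, and occurs in 24.5%. These matches describe letters and do not show a bound site.

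The transcripts carrying each gene's values were as follows, with positions on GRCm38. Malat1 was read from ENSMUST00000172812 (chr19:5795690-5802672, minus strand), a single exon of 6983 bases. Neat1 was read from ENSMUST00000173672 (chr19:5824708-5845478, minus strand), the long single-exon form of 20771 bases, of which 82.1% lies in no other annotated transcript. Meg3 was read from ENSMUST00000146701, Meg3-209 (chr12:109545398-109571726, plus strand), with 5 exons and 14548 bases. A second abundant form, ENSMUST00000129245, Meg3-205 (chr12:109541001-109545319), has 1498 bases at the 5′ end of the gene and shares 0 exonic bases with Meg3-209. Of its bases 32.5% lie in no other annotated transcript, against 73.6% for Meg3-209. Both have 1 miRNA gene inside its exons, and the gene has 11 annotated transcripts, so reads of other forms could be counted under either and enter the ratio of the pair. Snhg11 was read from ENSMUST00000109488 (chr2:158375638-158386145, plus strand), which the annotation classes as protein coding although the gene is known as a noncoding host gene. Gas5 was read from ENSMUST00000161229 (chr1:161035166-161038539, plus strand), a retained-intron form of 2556 bases with 6 snoRNA genes inside its exons and 1 of 25 annotated transcripts of the gene. Reads from its snoRNAs or its other forms could be counted under it. Rpph1 was read from ENSMUST00000175096 (chr14:50807449-50807767, minus strand), a single exon of 319 bases. No source used here says whether counting was by strand, so sense and antisense reads could not be told apart.

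Levels are CPM, counts divided by library size in the usual unit, with library sizes scaled by TMM (trimmed mean of M values) over the 10232 transcripts listed for all 30 libraries. Counts per library ran from 7536033 to 22919174 over the listed transcripts. The share of listed transcripts at 0 counts ran from 0.0821% to 2.48% in nucleolin IPs, from 1.54% to 21.8% in nucleolin blocked IPs, from 1.64% to 19.3% in PTBP1 IPs, from 15.8% to 30.4% in PTBP1 blocked IPs and from 0% to 7.28% in inputs. Library 3 had the lowest such share in 8 of the 10 groups. Injured input 1 stood apart: it was the shallowest library, and 57.5% of its counts fell on transcripts of 4 genes listed as possible sinks of ribosomal RNA reads (Gm26917, Yam1, Lars2 and Gm15564), against 24.5% and 7.42% in injured inputs 2 and 3 and 0.921% to 7.41% in naive inputs. Cell type markers were checked in the inputs. Markers of neurons and axons, 6 of 12 listed for all libraries, summed to 65.7 to 125 CPM in injured inputs and 136 to 214 CPM in naive inputs. The defining markers Tubb3, Nefh, Prph and Rbfox3 were not in all 4 tables and are not in these sums. Markers of myelinating Schwann cells, 7 of 10, summed to 5059 to 7977 CPM in injured inputs and 28310 to 55350 CPM in naive inputs, so the labelled axoplasm also held Schwann cell RNA.

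All 6 listed genes were present in all 30 libraries. Malat1 was the most abundant per base of transcript in each of the 10 groups. In naive inputs its mean was 2507 CPM per kilobase, against 86.2 for Rpph1, 39.5 for Meg3-205, 26.0 for Snhg11, 15.9 for Gas5, 3.15 for Meg3-209 and 1.76 for Neat1. Malat1 alone took 1.15% to 1.31% of all counts in injured inputs and 0.639% to 2.99% in naive inputs. These shares are of unscaled totals, which include the ribosomal RNA-like counts given above. In TMM-scaled CPM, Malat1 ran from 11750 to 24510 in injured inputs and from 6113 to 30790 in naive inputs. In the other groups its share was 2.79% ± 0.818 (SD, n = 3) in injured and 2.40% ± 0.543 in naive nucleolin IPs, 3.74% ± 0.988 and 2.76% ± 1.13 in the injured and naive nucleolin blocked IPs, 1.59% ± 0.974 and 1.97% ± 0.300 in the injured and naive PTBP1 IPs, and 3.59% ± 1.24 and 2.85% ± 1.63 in the injured and naive PTBP1 blocked IPs. The ranges of IPs and blocked IPs overlapped for both proteins and both conditions. The part of these counts that came from broken nuclei was not tested.

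**Figure D1:**
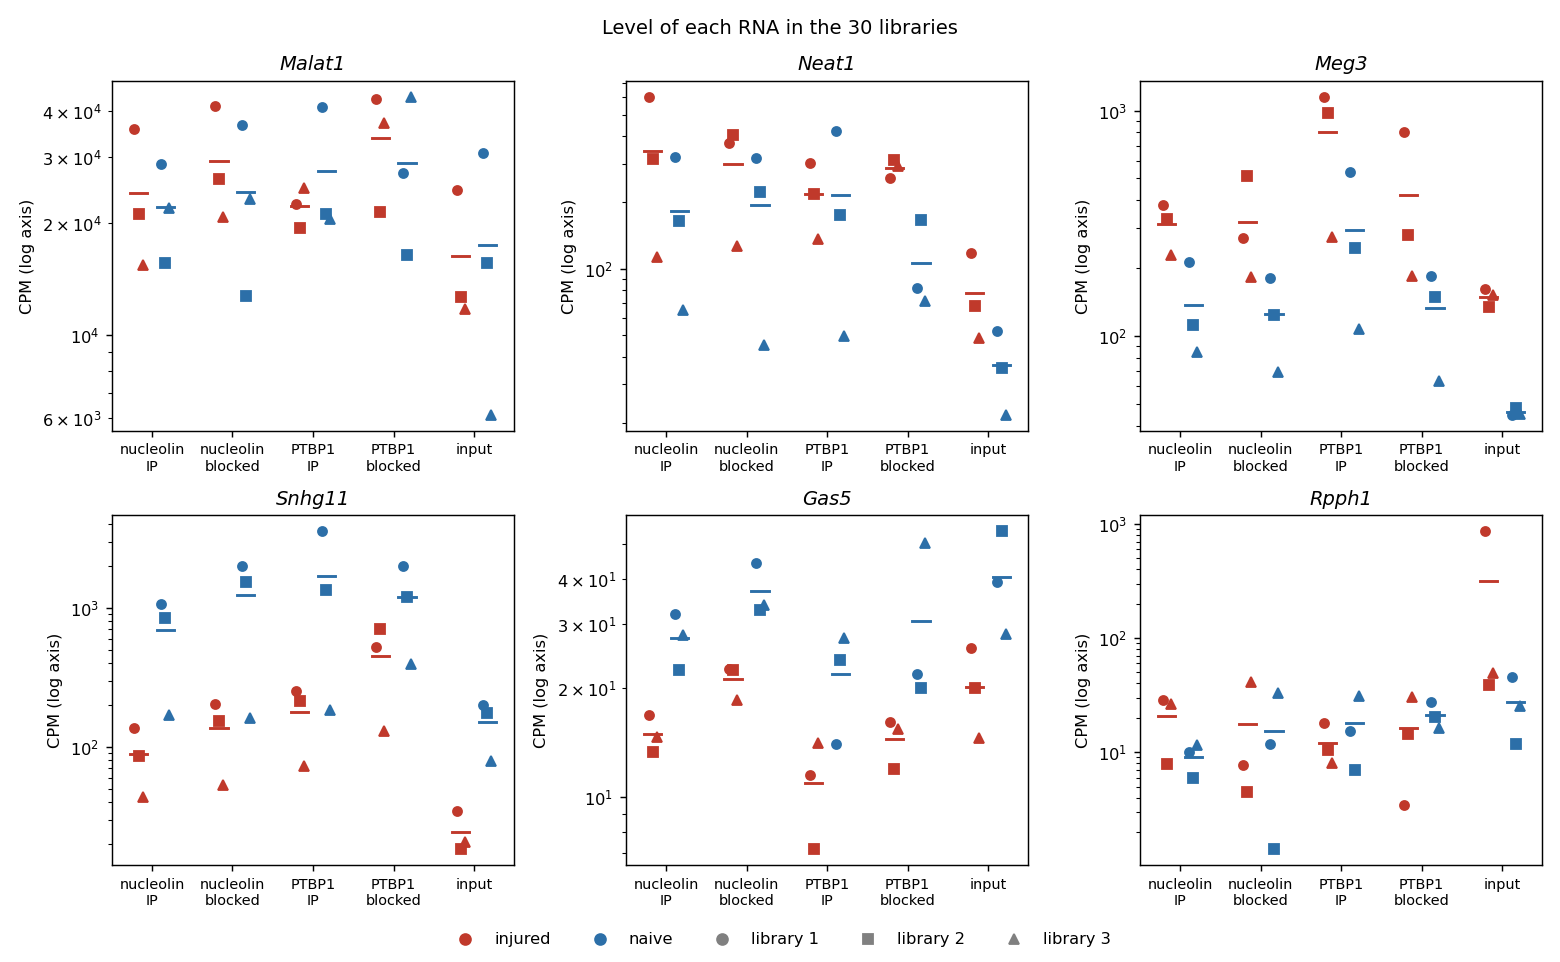
Level of the representative transcript of each RNA in the 30 libraries, in TMM-scaled CPM on a log axis; each symbol is 1 library (shape gives its number), red is injured, blue is naive, and the bar is the group mean. Malat1 is at or above 6113 CPM in every library, Snhg11 is lower in injured than in naive nerve in input and lowest in library 3 of most groups, and 1 injured input holds 860 CPM of Rpph1.

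The inputs show how the crush changed these RNAs in the extract. At 7 days after the crush the long form of Meg3, Neat1 and Rpph1 were higher in input, Snhg11 and Gas5 were lower, and Malat1 was not called. The calls of Meg3 and Snhg11 held under every alternative tried, and those of Neat1, Gas5 and Rpph1 did not. Changes were tested with edgeR's quasi-likelihood test over all 14095 transcripts that passed its filter on low counts, at a Benjamini-Hochberg adjusted p of 0.05. That test called 27.8% of all transcripts, 14.5% higher and 13.4% lower. Of the 11 member transcripts, all tested, 3 rose and 2 fell, and their median log2 fold change was -0.22, against 0.0017 over all transcripts. In these bulk extracts, fewer cells of a type and less RNA per cell cannot be told apart.

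Among the nuclear RNAs, Malat1 had 24510, 12630 and 11750 CPM in injured inputs 1 to 3, against 30790, 15600 and 6113 CPM in naive inputs 1 to 3. The groups overlapped widely, and the log2 fold change was -0.09 (SE 0.47, edgeR adjusted p = 0.915), with values from -0.64 to 0.51 over the alternative settings. Neat1 had 118, 67.8 and 48.5 CPM in injured inputs, against 52.3, 35.4 and 21.7 CPM in naive inputs. The lowest injured input lay below the highest naive input. Neat1 rose 2.13-fold (log2 1.09, SE 0.37, edgeR adjusted p = 0.0465). That call was lost with DESeq2 size factors (adjusted p = 0.0505), with library totals only (0.400), without the filter on low counts (0.0510), without injured input 1 (log2 0.55, adjusted p = 0.286) or 2 (0.0985), and without naive input 2 (0.125) or 3 (0.139); over the 11 alternatives the adjusted p ran from 0.00651 to 0.400.

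Meg3-209 had 162, 134 and 152 CPM in injured inputs, against 44.6, 48.0 and 45.0 CPM in naive inputs. Every injured input lay above every naive input; groups lay apart in this way, in either direction, for 44.3% of all transcripts tested. Meg3-209 rose 3.16-fold (log2 1.66, SE 0.23, edgeR adjusted p = 0.000259), and it was called under all 11 alternatives. The 5′ form, Meg3-205, had 34.3, 48.6 and 73.6 CPM in injured inputs, against 70.9, 52.5 and 54.0 CPM in naive inputs. It overlapped between the groups and was not called (log2 -0.22, SE 0.29, edgeR adjusted p = 0.623). The counts of the long form divided by those of the 5′ form gave 4.72, 2.75 and 2.06 in injured inputs and 0.629, 0.914 and 0.833 in naive inputs. This ratio, chosen after the values were seen, was above 1 in every injured input and below 1 in every naive input. Its log2 difference was 1.94 (SDs 0.61 in injured and 0.28 in naive inputs, n = 3 each), with p = 0.1 in a two-sided exact permutation test, the smallest 3 libraries against 3 can give, and 0.167 after adjustment over 5 such ratios. At this size the design cannot reach 0.05. Leaving out single inputs gave differences from 1.61 to 2.20.

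The same ratio was read in the recovered RNA. It was 5.66, 3.73 and 1.97 in injured nucleolin IPs against 2.26, 1.49 and 1.05 in naive ones, and 10.9, 7.39 and 2.22 in injured nucleolin blocked IPs against 1.06, 4.20 and 0.990 in naive ones. These groups overlapped, with exact permutation p = 0.2 for both. In PTBP1 IPs it was 5.11, 6.34 and 2.69 in injured nerve against 1.37, 1.23 and 1.30 in naive nerve, and in PTBP1 blocked IPs 4.11, 0.991 and 1.63 in injured nerve against 0.762, 0.554 and 0.768 in naive nerve. Both of these pairs lay apart, with exact permutation p = 0.1, or 0.167 after adjustment.

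**Figure D2:**
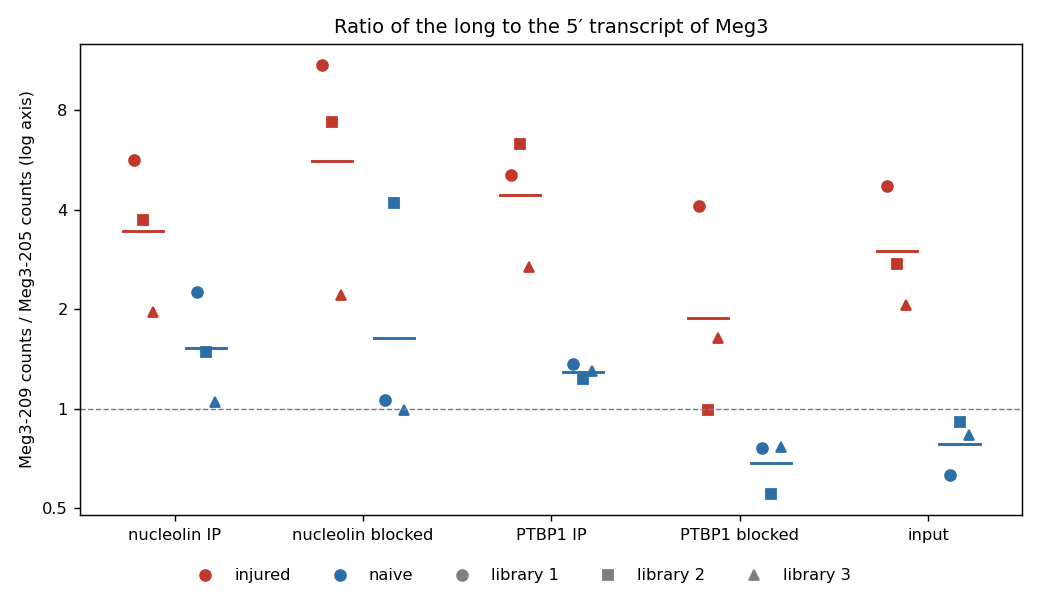
Counts of Meg3-209 (the long transcript) divided by counts of Meg3-205 (the 5′ transcript) in each library, on a log axis; red is injured, blue is naive, symbol shape gives the library number, bars are geometric means and the dashed line marks equal counts. In input the 3 injured libraries lie between 2.06 and 4.72 and the 3 naive ones between 0.629 and 0.914.

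Of the snoRNA host genes, Snhg11 had 34.5, 18.3 and 20.8 CPM in injured inputs, against 202, 175 and 79.9 CPM in naive inputs. Every injured input lay below every naive input. Snhg11 fell 6.33-fold (log2 -2.66, SE 0.36, edgeR adjusted p = 0.000253), and it was called under all 11 alternatives, with log2 values from -3.09 to -2.48. Gas5, which is known for accumulating in growth-arrested cells, had 25.8, 20.0 and 14.6 CPM in injured inputs, against 39.3, 54.2 and 28.3 CPM in naive inputs. Every injured input lay below every naive input. Gas5 fell 2.07-fold (log2 -1.05, SE 0.35, edgeR adjusted p = 0.0407). The call was lost without injured input 2 (adjusted p = 0.0947) or 3 (log2 -0.85, 0.113) and without naive input 1 (0.0569) or 2 (log2 -0.78, 0.240).

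Markers of several cell types moved with these changes. Besides the Schwann cell and neuronal sums, macrophage markers (8 of 10 listed) summed to 7226 to 9686 CPM in injured inputs and 1153 to 2297 CPM in naive inputs. Markers of dividing cells (4 of 6) summed to 593 to 740 and 25.5 to 45.4 CPM, skeletal muscle markers (4 of 5) to 26.3 to 118 and 684 to 1075 CPM, and adipocyte markers (3 of 5) to 46.5 to 154 and 2749 to 3680 CPM, in injured and naive inputs. Endothelial markers (5 of 5) overlapped, with 351.4 to 554.5 CPM in injured and 357.5 to 462.4 CPM in naive inputs. Fibroblast markers (6 of 7) summed to 15150 to 18180 CPM in injured and 20600 to 23870 CPM in naive inputs. None of the listed markers was at 0 in all 3 libraries of either group. Their part in the changes of Snhg11, Gas5, Meg3 and Neat1 was not tested.

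Rpph1 had 860, 39.1 and 49.7 CPM in injured inputs, against 45.4, 11.7 and 25.4 CPM in naive inputs. Injured input 1 was 1 library far above the others, and injured input 2 lay within the naive range. The log2 fold change was 3.55 (SE 0.99, edgeR adjusted p = 0.0186), and Rpph1 was among the called transcripts. Without injured input 1 it was 0.57 (adjusted p = 0.383), and without naive input 2 it was 3.17 (adjusted p = 0.0544). DESeq2 gave no adjusted p for it. The same library held the 57.5% of ribosomal RNA-like counts given above, and the part of those reads or of its depth in the Rpph1 value was not tested. The other 4 listed Meg3 and Gas5 transcripts of the input table, Meg3-204, Gas5-202, Gas5-206 and Gas5-223, had log2 fold changes of -1.67, 0.48, -0.38 and -0.94 and were not called, with edgeR adjusted p from 0.227 to 0.742.

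In the RNA recovered by IP, the same contrast gave larger errors. In nucleolin IPs, where 0.828% of 11840 transcripts were called between injured and naive nerve, none of the 16 members tested was called. Snhg11 had 138, 86.1 and 43.6 CPM in injured nucleolin IPs, against 1059, 842.5 and 169 CPM in naive nucleolin IPs. The groups did not overlap, as for 28.8% of transcripts, and the log2 fold change was -2.87 (SE 0.87, edgeR adjusted p = 0.167). It passed the threshold with DESeq2 (adjusted p = 0.0181), and the range over 11 alternatives was 0.0122 to 0.529. Meg3-209 had 382, 329 and 228 CPM in injured nucleolin IPs, against 213, 112 and 84.7 CPM in naive nucleolin IPs. These groups also lay apart (log2 1.27, SE 0.49, edgeR adjusted p = 0.292).

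In PTBP1 IPs, 1 of 14540 transcripts (0.00688%) was called between injured and naive nerve, and it was no member. Snhg11 had 252, 214 and 72.6 CPM in injured PTBP1 IPs, against 3555, 1343 and 186 CPM in naive PTBP1 IPs. Library 3 of the naive group lay below both higher injured libraries (log2 -3.38, SE 0.96, edgeR adjusted p = 0.255). Meg3-209 had 1150, 981 and 276 CPM in injured PTBP1 IPs, against 532, 246 and 107 CPM in naive PTBP1 IPs, and the groups overlapped (log2 1.28, SE 0.74, edgeR adjusted p = 0.584). Neat1 differed by 0.99 (SE 0.76) between injured and naive nucleolin IPs and by -0.11 (SE 0.69) between injured and naive PTBP1 IPs on the log2 scale. Whether the injury contrast in IPs differs from that in inputs was not tested.

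**Figure D3:**
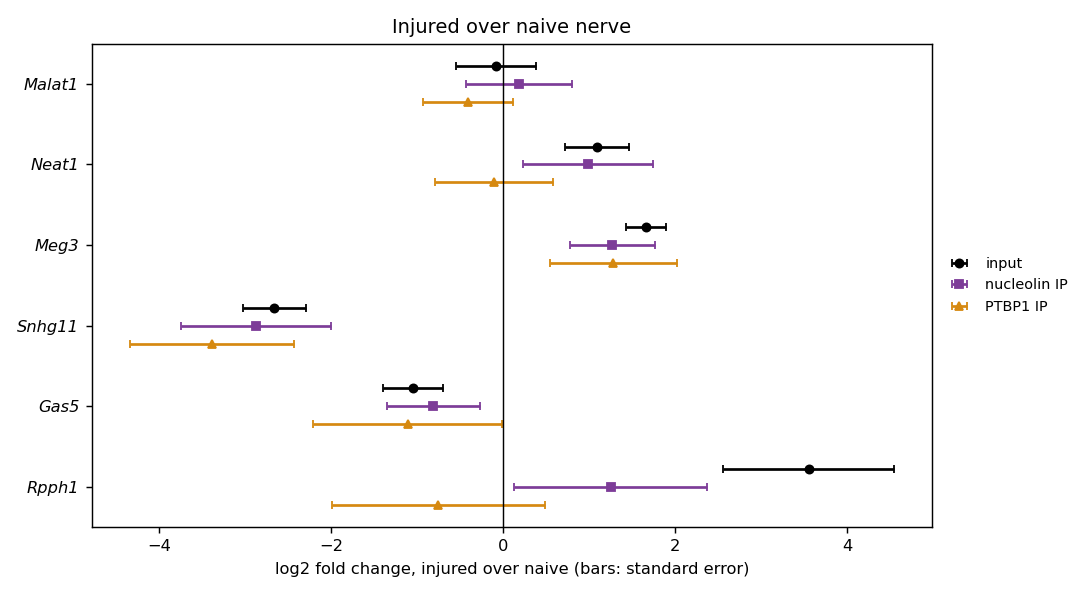
Fitted log2 fold change of the representative transcript of each RNA in injured over naive nerve, in input, nucleolin IP and PTBP1 IP; bars are standard errors. Snhg11 lies below -2.6 and Meg3 above 1.2 in all 3, and the Rpph1 value in input (3.55) rests on 1 library.

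The peptide-blocked IPs give the background of each antibody, so IP over blocked IP asks whether an RNA was recovered through the protein. None of the 16 member transcripts tested for nucleolin or the 18 tested for PTBP1 was called in either condition. The test called 0.0% of transcripts in all 4 comparisons, members or not. By edgeR, unadjusted p was under 0.05 for 769 and 1422 of 11840 transcripts for nucleolin in injured and naive nerve, and for 1815 and 1893 of 14540 for PTBP1. DESeq2 called 322, 762, 962 and 1128 transcripts in these comparisons, with no member among them. Of the 16 members, 5 and 6 had positive log2 differences for nucleolin in injured and naive nerve, and of the 18 members 3 and 10 had them for PTBP1. The medians were -0.37, -0.17, -0.80 and 0.01, against -0.06, -0.11, 0.02 and 0.05 over all transcripts. No call at this replication does not show that IPs and blocked IPs were alike.

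Malat1 had 35650, 21090 and 15400 CPM in injured nucleolin IPs, against 41050, 26190 and 20750 CPM in injured nucleolin blocked IPs. In naive nerve it had 28830, 15650 and 21920 CPM in nucleolin IPs, against 36670, 12740 and 23160 CPM in nucleolin blocked IPs. IPs and blocked IPs had overlapping ranges, with log2 differences of -0.29 (SE 0.62) in injured and -0.18 (SE 0.62) in naive nerve. With the PTBP1 antibody Malat1 had 22460, 19440 and 24780 CPM in injured IPs against 42940, 21340 and 36990 CPM in injured blocked IPs, and 40990, 21100 and 20550 CPM in naive IPs against 27150, 16410 and 43540 CPM in naive blocked IPs. The groups overlapped, with log2 differences of -0.70 (SE 0.53) and -0.18 (SE 0.53) in injured and naive nerve.

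Neat1 had 602, 316 and 114 CPM in injured nucleolin IPs, against 371, 403 and 126 CPM in injured nucleolin blocked IPs. In naive nerve it had 321, 165 and 64.7 CPM in nucleolin IPs, against 318, 222.5 and 44.9 CPM in nucleolin blocked IPs. Library 3 was the lowest of each of these groups, and the log2 differences were 0.18 (SE 0.75) and -0.12 (SE 0.75) in injured and naive nerve. With the PTBP1 antibody Neat1 had 300, 218 and 137 CPM in injured IPs, against 258, 312 and 292 CPM in injured blocked IPs. In naive nerve it had 422, 176 and 49.8 CPM in PTBP1 IPs, against 82.1, 167 and 71.5 CPM in PTBP1 blocked IPs. The 422 CPM of naive PTBP1 IP 1 stood well above the rest, and the log2 differences were -0.54 (SE 0.69) and 0.88 (SE 0.69).

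Snhg11, with its long pyrimidine tract, had 202, 155 and 52.9 CPM in injured nucleolin blocked IPs and 1995, 1539 and 161 CPM in naive nucleolin blocked IPs, with ranges that overlap those of the nucleolin IPs given before. Its PTBP1 blocked IPs held 522, 700 and 131 CPM in injured nerve and 2010, 1194 and 394 CPM in naive nerve. Both ranges overlap those of the PTBP1 IPs, and the highest value of injured nerve was in a blocked IP. The log2 differences, IP over blocked IP, were -0.63 (SE 0.82) and -0.87 (SE 0.82) for nucleolin and -1.46 (SE 0.89) and 0.39 (SE 0.87) for PTBP1, in injured and naive nerve. The edgeR adjusted p ran from 0.600 to 0.998.

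Meg3-209 had 271, 513 and 182 CPM in injured nucleolin blocked IPs and 181, 124 and 68.9 CPM in naive ones, with log2 differences, IP over blocked IP, of -0.05 (SE 0.49) and 0.09 (SE 0.49). In PTBP1 blocked IPs it had 804, 280 and 184 CPM in injured nerve and 184, 149 and 63.4 CPM in naive nerve. The PTBP1 IPs, given before, reached higher values in both conditions, but the groups overlapped, and the log2 differences of 0.79 (SE 0.73, edgeR adjusted p = 0.807) and 1.05 (SE 0.73, adjusted p = 0.643) were not called. Gas5 was lower in nucleolin IPs than in nucleolin blocked IPs in each library of both conditions. It ranged from 13.3 to 16.9 CPM in injured nucleolin IPs against 18.6 to 22.6 CPM in injured nucleolin blocked IPs, and from 22.4 to 32.1 CPM in naive nucleolin IPs against 32.8 to 44.4 CPM in naive nucleolin blocked IPs. IPs lay wholly below blocked IPs in this way for 6.02% and 6.28% of all transcripts in these comparisons, and the Gas5 log2 differences of -0.51 (SE 0.54) and -0.48 (SE 0.54) were not called. Rpph1 ranged from 7.85 to 28.7 CPM in injured nucleolin IPs against 4.46 to 40.9 CPM in injured nucleolin blocked IPs, and from 7.05 to 31.1 CPM in naive PTBP1 IPs against 16.4 to 27.6 CPM in naive PTBP1 blocked IPs. Its log2 differences lay between -0.85 and 0.27 with SEs from 1.11 to 1.24.

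**Figure D4:**
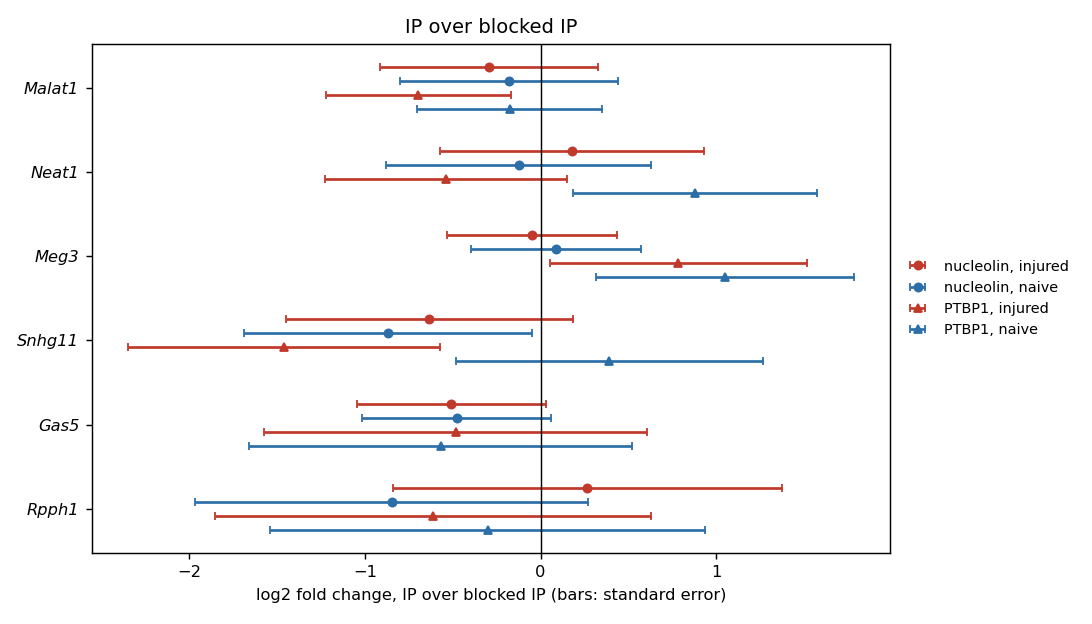
Fitted log2 fold change of the representative transcript of each RNA in IP over blocked IP, for nucleolin (circles) and PTBP1 (triangles) in injured (red) and naive (blue) nerve; bars are standard errors. Values run from -1.46 for Snhg11 to 1.05 for Meg3, both with PTBP1, and none was called.

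The change of IP over blocked IP with injury was tested as an interaction. It called 0.0% of transcripts for either protein, with unadjusted p under 0.05 for 302 of 11840 transcripts for nucleolin and 1147 of 14540 for PTBP1 by edgeR, and with 20 and 431 transcripts called by DESeq2. No member was called by either tool. The largest interactions of representative transcripts were Snhg11 at -1.85 (SE 1.24, edgeR adjusted p = 0.841) and Neat1 at -1.42 (SE 0.98, adjusted p = 0.851), both for PTBP1. For nucleolin, Rpph1 had 1.11 (SE 1.57) and the other representatives lay between -0.14 and 0.31.

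Against input, the recovered RNA held more Snhg11, Neat1 and Meg3-209 than the extract it came from, by point estimate, and it did so in the blocked IPs as well as in the IPs. None of these differences was called by edgeR's quasi-likelihood test with TMM scaling, all libraries and no replicate block. Some were called by DESeq2, with the replicate block, with library totals only or without library 3 of the recovered RNA. The edgeR fit with all libraries, TMM scaling and no block called 0.404% and 1.06% of 10891 transcripts in nucleolin IPs of injured and naive nerve, 1.02% and 0.218% of 12393 in PTBP1 IPs, 0.0% and 0.0% in nucleolin blocked IPs, and 0.0161% and 0.0% in PTBP1 blocked IPs. In the 3 blocked comparisons with no call, the unadjusted edgeR p was under 0.05 for 1389, 1398 and 1821 transcripts, and DESeq2 called 434, 342 and 1144. IP and blocked comparisons of a condition share the same 3 inputs, so their values are given side by side only.

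Snhg11 over input had log2 fold changes of 1.86 (SE 0.77) and 2.18 (SE 0.77) in nucleolin IPs of injured and naive nerve, beside 2.50 (SE 0.79) and 3.04 (SE 0.80) in the nucleolin blocked IPs. With PTBP1 it had 2.74 (SE 0.85) and 3.39 (SE 0.88) in the IPs, beside 4.20 (SE 0.91) and 2.99 (SE 0.86) in the blocked IPs. All 8 values were positive, and the smallest edgeR adjusted p was 0.0664, for PTBP1 blocked IPs of injured nerve. In all 4 comparisons of injured nerve and in PTBP1 blocked IPs of naive nerve, every library of the recovered RNA lay above every input. The groups overlapped in the other 3 comparisons of naive nerve. Groups lay apart, in either direction, for 33.7% of transcripts in nucleolin IPs, 24.7% in nucleolin blocked IPs, 31.8% in PTBP1 IPs and 27.0% in PTBP1 blocked IPs of injured nerve, and for 26.3% in PTBP1 blocked IPs of naive nerve. Without library 3 of the recovered RNA, edgeR called Snhg11 in PTBP1 IPs of naive nerve (adjusted p = 0.0154), nucleolin blocked IPs of naive nerve (0.00777) and PTBP1 blocked IPs of injured (0.0254) and naive nerve (0.0428). DESeq2 called Snhg11 in 6 of these 8 comparisons, PTBP1 IPs (adjusted p = 0.0214 in injured and 0.00591 in naive nerve), PTBP1 blocked IPs (0.000229 and 0.0149) and nucleolin blocked IPs (0.0370 and 0.0116). With the replicate block, edgeR called it in naive nucleolin IPs (adjusted p = 0.0384) and in injured (0.0416) and naive PTBP1 IPs (0.0440). The block also gave calls in injured (0.0346) and naive nucleolin blocked IPs (0.0324) and injured PTBP1 blocked IPs (0.0166). With library totals only, edgeR called it in injured nucleolin (adjusted p = 0.0351) and PTBP1 blocked IPs (0.0231).

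Neat1 over input had log2 fold changes of 2.14 (SE 0.73) and 2.33 (SE 0.73) in nucleolin IPs of injured and naive nerve, beside 1.96 (SE 0.72) and 2.44 (SE 0.73) in nucleolin blocked IPs. With PTBP1 it had 1.37 (SE 0.62) and 2.49 (SE 0.65) in the IPs, beside 1.89 (SE 0.63) and 1.55 (SE 0.63) in the blocked IPs. The edgeR adjusted p ran from 0.128 to 0.516. DESeq2 called Neat1 in nucleolin IPs (adjusted p = 0.0388 in injured and 0.0250 in naive nerve), in PTBP1 IPs of naive nerve (0.00830) and in nucleolin blocked IPs of naive nerve (0.0418). Without library 3 of the recovered RNA, edgeR called it in the same 3 groups of naive nerve, at adjusted p = 0.0409, 0.0157 and 0.0193. In nucleolin IPs over input of injured nerve, same-numbered libraries deviated together. With the replicate number as a block Neat1 was called there (log2 1.91, edgeR adjusted p = 0.0137) among 393 called transcripts, against 44 without the block. The block also gave edgeR calls of Neat1 in naive nucleolin IPs (adjusted p = 0.00843) and in injured (0.0196) and naive nucleolin blocked IPs (0.0245). With library totals only, edgeR called it in injured nucleolin IPs (adjusted p = 0.0423) and injured nucleolin blocked IPs (0.0386).

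Meg3-209 over input had 1.07 (SE 0.42) and 1.58 (SE 0.43) in nucleolin IPs, beside 1.12 (SE 0.42) and 1.47 (SE 0.42) in nucleolin blocked IPs. With PTBP1 it had 2.29 (SE 0.66) and 2.60 (SE 0.67) in the IPs, beside 1.51 (SE 0.64) and 1.53 (SE 0.64) in the blocked IPs, each pair in injured and naive nerve. The lowest adjusted p in that edgeR fit was 0.0905, for nucleolin IPs of naive nerve; with the replicate block it was 0.0369 there, and with library totals only Meg3-209 was called in nucleolin blocked IPs of injured nerve (0.0446). DESeq2 called Meg3-209 in nucleolin IPs of naive nerve (adjusted p = 0.0138) and in PTBP1 IPs of injured (0.0111) and naive nerve (0.00852). Without library 3 of the recovered RNA, edgeR called it in these 3 groups (adjusted p = 0.0235, 0.0324 and 0.0299) and in nucleolin blocked IPs of naive nerve (0.0208). In each of the 8 comparisons every library of the recovered RNA lay above every input, beside the shares given for Snhg11 and 27.9% of transcripts in nucleolin IPs, 20.2% in nucleolin blocked IPs and 23.4% in PTBP1 IPs of naive nerve.

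Malat1 over input was between 0.35 and 1.07 in all 8 comparisons, with SEs of 0.57 to 0.61. Gas5 was between -0.97 and 0.10. Rpph1 was lower in the recovered RNA by point estimate. In injured nerve its log2 fold changes were -3.91 (SE 1.23) in nucleolin IPs, -4.14 (SE 1.24) in nucleolin blocked IPs, -4.82 (SE 1.16, edgeR adjusted p = 0.0536) in PTBP1 IPs and -4.25 (SE 1.13) in PTBP1 blocked IPs. In naive nerve they were -1.56, -0.78, -0.65 and -0.35. DESeq2 called Rpph1 lower in nucleolin IPs (adjusted p = 0.00723) and nucleolin blocked IPs (0.00525) of injured nerve. Without library 3 of those blocked IPs, edgeR called it there (adjusted p = 0.0457). The edgeR values of injured nerve rest on injured input 1, and without it they lie at -1.08, -1.31, -1.95 and -1.33.

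**Figure D5:**
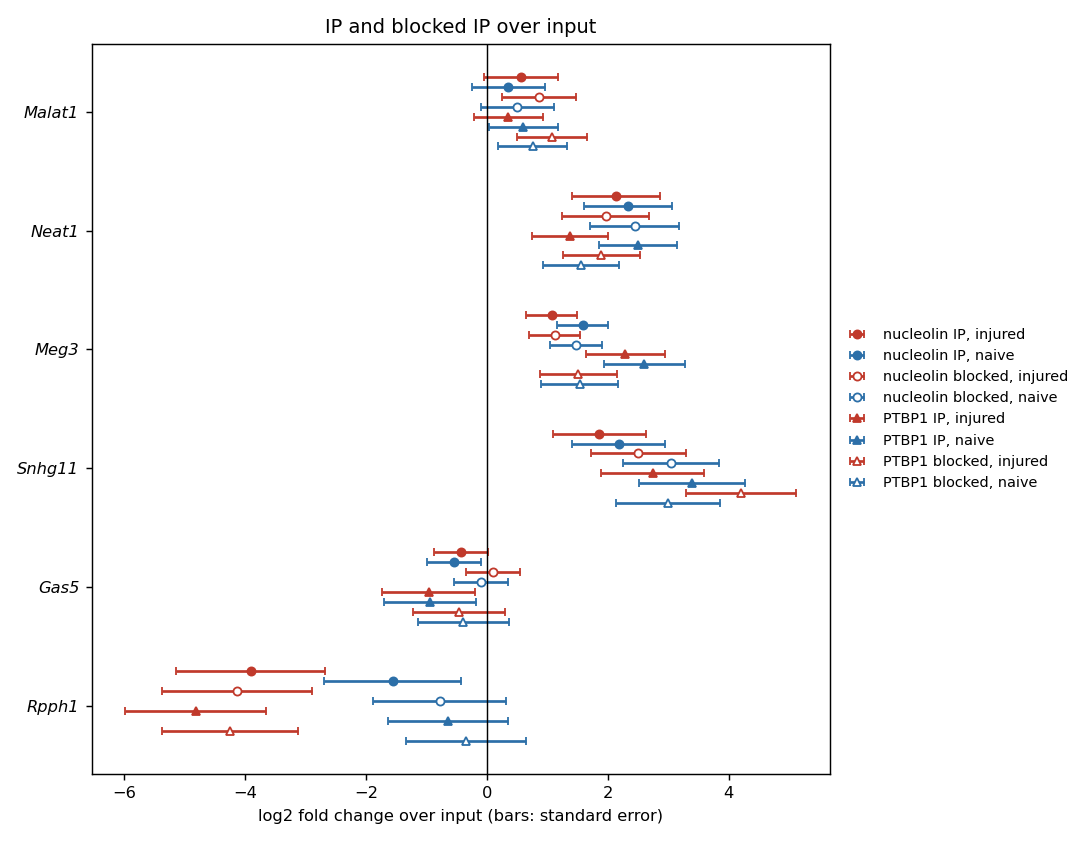
Fitted log2 fold change of the representative transcript of each RNA over input, for nucleolin (circles) and PTBP1 (triangles), in IPs (filled) and blocked IPs (open) of injured (red) and naive (blue) nerve; bars are standard errors. Snhg11, Neat1 and Meg3 lie above 1 in filled and open symbols alike, Malat1 lies between 0.35 and 1.07, and the red Rpph1 values rest on 1 input.

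The library number went with several of these levels. Library 3 held the lowest Snhg11 in 9 of the 10 groups, the lowest Neat1 in 9 and the lowest Meg3-209 in 8, and it also had the fewest transcripts at 0 counts in 8. Malat1 was lowest in library 2 in 5 groups and in library 3 in the other 5, and Rpph1 was lowest in library 2 in 7. In nucleolin blocked IPs of naive nerve, for example, the libraries with 1995, 1539 and 161 CPM of Snhg11 had 14.7%, 11.5% and 2.35% of transcripts at 0. The part of library complexity in these levels was not tested.

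The order of the 10 groups by mean level differed between the RNAs. Snhg11 was highest in naive PTBP1 IPs (1694 ± 1712 CPM, SD, n = 3) and lowest in injured inputs (24.6 ± 8.74 CPM), and its 3 lowest groups, injured inputs, injured nucleolin IPs and injured nucleolin blocked IPs, were all of injured nerve. Meg3-209 was highest in injured PTBP1 IPs (802 ± 464 CPM) and lowest in naive inputs (45.9 ± 1.85 CPM), and its 4 highest groups were the 4 kinds of recovered RNA of injured nerve. Neat1 was highest in injured nucleolin IPs (344 ± 245 CPM) and lowest in naive inputs (36.5 ± 15.3 CPM). Malat1 ran from 33760 ± 11160 CPM in injured PTBP1 blocked IPs to 16300 ± 7126 CPM in injured inputs. Gas5 ran from 40.6 ± 13.0 CPM in naive inputs to 10.9 ± 3.50 CPM in injured PTBP1 IPs, and all 5 naive groups had higher means than all 5 injured groups. Among neighbours in these orders, libraries lay apart only between the lowest and next lowest groups of Snhg11 and of Meg3-209. All other neighbours overlapped.

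The 11 member transcripts that did not represent a gene and were not the 5′ form of Meg3 were scarcer. Snhg11-202, a retained-intron form listed for 18 libraries, ranged from 0 to 193 CPM and Meg3-206, listed for 12, from 0 to 61.9 CPM, both with medians under 1 CPM. The other 3 Meg3 forms had medians from 1.26 to 3.17 CPM. The 6 other Gas5 forms had medians between 0.41 and 2.54 CPM. Where they passed the filter, none of these 11 was called by edgeR in any of the 17 comparisons.

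By the correlation of log2(CPM + 1) over the 30 libraries among 7265 transcripts averaging 10 CPM or more, the transcripts most like Neat1 were those of Fam193b (Pearson r 0.94), the U1 small nuclear ribonucleoprotein gene Snrnp70 (0.93) and Arglu1 (0.91). Those most like Meg3-209 were Myo5a (0.92), which encodes a myosin motor, the small Maf transcription factor gene Mafg (0.91) and Gigyf1 (0.90). Those most like Snhg11 were Mapk12 (0.93), a p38 kinase gene of skeletal muscle, the integrin gene Itga7 (0.91) and the monooxygenase gene Fmo1 (0.88). Likeness was weaker for Gas5 (highest 0.83, Aldh1a1), Malat1 (0.71, Plekha4) and Rpph1 (0.70, Ftl1). Among the members, Neat1 and Meg3-209 had r 0.77, Malat1 and Neat1 0.55, and Meg3-209 and Gas5 -0.76. The 30 libraries share groups, depth and complexity, so these values describe a pattern and carry no test.

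A wider list of 69 other nuclear or structured noncoding RNAs was read beside the members, and 35 of them were listed; their CPM are on the scale of the fit each stands in. In input 30 were tested, of which 5 rose and 6 fell in injured nerve, with a median of -0.18. Over all transcripts 14.5% rose and 13.4% fell, 27.8% in all, with a median of 0.0017. H19, an imprinted RNA of growing tissue, had 292 ± 89.8 CPM in injured and 42.9 ± 11.5 CPM in naive inputs (SD, n = 3; log2 2.77, SE 0.29, edgeR adjusted p = 4.04e-05). Gm26917, one of the ribosomal RNA-like transcripts, had 106 ± 143 CPM in injured and 11.3 ± 11.1 CPM in naive inputs (log2 3.23, SE 1.00, adjusted p = 0.0304); it was not called by DESeq2 (adjusted p = 0.0648) or without injured input 1 (log2 0.99, adjusted p = 0.389) or naive input 2 (0.0843) or 3 (0.0795). Lower were Rny1, a Y RNA of the Ro particle, with 2.21 ± 0.561 CPM in injured and 12.3 ± 11.3 CPM in naive inputs (log2 -2.45, SE 0.74, edgeR adjusted p = 0.0266; lost without any 1 injured input, at 0.0568 to 0.0754, or naive input 3, at 0.169), and the snoRNA host gene Snhg18, with 74.5 ± 30.5 CPM in injured and 399 ± 135 CPM in naive inputs (log2 -2.41, SE 0.34, adjusted p = 0.000312). Mirg, from the same imprinted cluster as Meg3, had 19.9 ± 4.83 CPM in injured and 3.03 ± 0.567 CPM in naive inputs (log2 2.72, SE 0.42, edgeR adjusted p = 0.000567). It is the third in size among the 5 that rose and was named after its value was seen.

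In the recovered RNA, none of the 26 or 30 list genes tested was called in IP over blocked IP of either protein. Over input the list medians were 0.61 and 0.81 in nucleolin IPs of injured and naive nerve, and 0.96 and 0.92 in nucleolin blocked IPs. With PTBP1 they were 0.04 and 0.80 in the IPs, and 0.59 and 0.45 in the blocked IPs. The medians over all transcripts ran from -0.09 to 0.09 in these comparisons. Over input, nucleolin IPs of naive nerve were higher in Rian, another RNA of the Meg3 cluster, with 411 ± 352 CPM in IPs against 15.2 ± 2.24 CPM in inputs (log2 4.76, SE 0.88, edgeR adjusted p = 0.0152), and in H19, with 455 ± 322 CPM in IPs against 50.8 ± 13.5 CPM in inputs (log2 3.16, SE 0.58, adjusted p = 0.0152). H19 was also higher in PTBP1 IPs than in inputs of injured nerve (log2 5.42, SE 1.23, edgeR adjusted p = 0.0429). Snhg18 was lower in injured than in naive nucleolin IPs (log2 -1.97, SE 0.39, edgeR adjusted p = 0.0377). Each of these 4 calls was lost when single libraries were left out: Snhg18 without any 1 of the 6, with adjusted p from 0.0574 to 0.257. H19 lost its calls without any library but library 3 of the IPs (adjusted p from 0.0532 to 0.257), and Rian lost its call without any input or nucleolin IP 1 (from 0.0957 to 0.144).

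Transcript classes of the annotation were set beside the members. Retained-intron transcripts, the class of the Gas5 forms, had median log2 differences of IP over blocked IP of 0.75 and 1.06 for nucleolin in injured and naive nerve and of 1.08 and 1.16 for PTBP1. Over all transcripts the medians were -0.06, -0.11, 0.02 and 0.05. None of the 1256 or 1913 retained-intron transcripts tested was called. The lincRNA class, which holds Malat1, Neat1 and the Meg3 forms, had medians of 0.36 and 0.60 for nucleolin in injured and naive nerve and of 0.61 and 0.37 for PTBP1, with none of the 221 or 274 transcripts tested called. Over input, the retained-intron class had medians of 0.61 and 0.81 in nucleolin IPs of injured and naive nerve and of -0.17 and -0.39 in nucleolin blocked IPs. The lincRNA class had 0.52 and 0.84 in these IPs and 0.0014 and 0.12 in these blocked IPs. Every transcript in these nucleolin and PTBP1 fits had reached 5 counts in each library of at least 1 group. A scarce transcript could thus be listed through the IPs alone, which can raise a class median of IP over blocked IP. These medians do not by themselves show recovery through the protein. The blocked IPs had the higher shares of transcripts at 0 given above. The parts of the filter and of these zeros in the class medians were not tested. The representative Gas5 transcript differed by -0.57 to -0.48 in the 4 comparisons of IP with blocked IP.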

How the data were processed

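RNA was sequenced from 30 libraries of mouse sciatic nerve axoplasm in 10 groups of 3. The authors deposited raw counts for each Ensembl transcript, and these were used. CASAVA 1.8.2, edgeR and the builds mm10 and GRCm38 are named in the submitters' processing notes. Aligner, counter, annotation release and use of strand are not stated there. The tables were filtered before deposit: every transcript of the nucleolin and PTBP1 tables, and 14506 of 15006 in the input table, reached 5 counts in each library of at least 1 group, so totals are not full depth. A further 114 columns of the authors' normalized values were not used. The column of naive blocked library 3, for nucleolin and PTBP1, carries another label for blocked and was matched by condition, protein and number.

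The members and lists were chosen with earlier results of these data known. Tests were edgeR 4.0.16 quasi-likelihood fits (R 4.3.3) with TMM, filterByExpr and Benjamini-Hochberg adjustment over all transcripts, two-sided, at 0.05: the 6 inputs (14095 transcripts tested), 12 nucleolin (11840) or 12 PTBP1 libraries (14540), and each 12 with the inputs (10891 and 12393). Each gene was represented by its listed transcript with the highest mean CPM. Other list genes were named if called, at most 2 per direction by size. Checks used simulated counts. Alternatives were DESeq2 1.42.0 (size factors or Wald test), library totals, no filter, a replicate block and leaving out each library.

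Same-numbered libraries deviated together with correlations all over 0.1 only for nucleolin IP over input of injured nerve (0.116, 0.158 and 0.159). The tests named above used no block, there or elsewhere, and the block was read as an alternative. Gene annotation was GENCODE M21, which held 19974 of 20423 identifiers (97.8%).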

Additional observations from a re-analysis of the deposited data

How the results depend on the processing

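The DESeq2 Wald test called 322 and 762 for nucleolin IP over blocked IP in injured and naive nerve, 962 and 1128 for PTBP1, 20 and 431 for the nucleolin and PTBP1 interactions, and 729 and 712 for injured over naive nucleolin and PTBP1 IPs. Over input, in injured and naive nerve, it called 717 and 601 in nucleolin IPs, 669 and 399 in PTBP1 IPs, 434 and 342 in nucleolin blocked IPs, and 1179 and 1144 in PTBP1 blocked IPs. Library totals only gave 2327 calls between inputs, 36.4% of them higher against 51.9%, with the median of all transcripts shifted by -0.264; 39 for naive nucleolin IP over blocked IP; and over input 253 and 318 in injured nucleolin IPs and blocked IPs, 81 in injured PTBP1 IPs, and 15 and 2 in injured and naive PTBP1 blocked IPs. DESeq2 size factors gave 197, 1 and 0 for injured PTBP1 IPs, naive PTBP1 IPs and injured PTBP1 blocked IPs over input.

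The replicate block gave 334 and 6 calls for injured over naive nucleolin and PTBP1 IPs, and over input 393 and 295 in injured and naive nucleolin IPs, 42 in naive PTBP1 IPs, 170 and 49 in injured and naive nucleolin blocked IPs, and 8 and 5 in injured and naive PTBP1 blocked IPs. Outside injured nucleolin IP over input, the same-numbered correlations were not all over 0.1. Between injured and naive nucleolin IPs they were 0.28, 0.0974 and 0.495. In each comparison checked, libraries correlated best with their own number in 5 or 6 of 6 cases. What the library number stands for was not tested. With the block Snhg11 was called between nucleolin IPs (log2 -2.61, adjusted p = 0.0122).

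Leaving out single libraries gave 2514 to 3821 calls between inputs; 0 to 15 and 0 to 320 for nucleolin IP over blocked IP in injured and naive nerve, 0 to 4 and 0 for PTBP1; 0 to 5 and 0 for the interactions; 2 to 27 and 0 to 5 for injured over naive nucleolin and PTBP1 IPs. Over input, in injured and naive nerve, it gave 0 to 431 and 0 to 581 in nucleolin IPs, 0 to 372 and 0 to 209 in PTBP1 IPs, 0 to 405 and 0 to 1080 in nucleolin blocked IPs, and 0 to 116 and 0 to 528 in PTBP1 blocked IPs. The highest counts over input came without library 3 of the recovered RNA. The 15 and 320 came without injured nucleolin IP 3 and naive nucleolin blocked IP 3, and the 2514 without naive input 2. The causes were not tested. Of 1388 alternative values for members, 1329 kept their side of the threshold, 13 lost a call and 46 gained one; 0 called and 94 uncalled values changed sign.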
